A study of Mus musculus with 32 samples.

Results

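*Ros1* encodes a receptor tyrosine kinase, and it was followed here in mouse lung tumor cells together with 9 other receptors of the same enzyme class that lung epithelium or its tumors can carry, *Egfr*, *Erbb2*, *Erbb3*, *Met*, *Fgfr2*, *Fgfr3*, *Kit*, *Ret* and *Igf1r*. The 10 genes were selected by symbol out of 53558 genes in the RSEM tables of 32 bulk RNA-seq libraries. *Ros1* was chosen on its measured values in these libraries, since it was low in tumors without *Lkb1* and higher after *Lkb1* was restored, so its differences between those groups are given as a description with no test. The other 9 receptors were chosen by name, with earlier results of these data known.

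Receptor tyrosine kinases span the cell membrane. Binding of a ligand outside the cell brings receptors together, switches on the kinase inside, and recruits adaptor proteins that feed the RAS-ERK and PI3K-AKT pathways. In lung, FGFR2 is best known for branching and for the alveolar epithelium, EGFR, ERBB2 and ERBB3 for epithelial growth and repair, and MET for the response to hepatocyte growth factor. In human lung adenocarcinoma EGFR, MET, RET and ROS1 are drug targets when they are mutated or fused. LKB1 (gene symbol *Stk11*) is itself a serine/threonine kinase that activates AMPK and related kinases.

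All tumors carried *KrasLSL-G12D* and *Rosa26LSL-tdTomato* and were started by Lenti-Cre given into the airway of mice on a mixed background. *KT* tumors kept wild-type *Lkb1* (4 libraries, no treatment). In *Lkb1XTR/XTR* tumors a gene trap silenced *Lkb1* at initiation, and the trap could be excised by FLPo-ERT2, a recombinase expressed from the *Rosa26* locus and active only with tamoxifen. The non-restored group held 10 libraries, 6 with FLPo-ERT2 given vehicle and 4 without FLPo-ERT2 given tamoxifen. The restored group held 7 libraries with FLPo-ERT2 given 4 mg doses of tamoxifen for 2 weeks. These 3 groups had wild-type *Trp53* and were collected 24 to 27 weeks after initiation. Per the study's methods, *KT* mice for RNA-seq received a lower dose of Lenti-Cre than *Lkb1XTR/XTR* mice. Comparisons with *KT* thus differ in that dose as well as in *Lkb1* and treatment, which cannot be told apart. Further tumors carried *Trp53flox/flox*, deleted by the same Cre, and were collected at 16 to 19 weeks, so *Trp53* status and time of growth cannot be told apart. They were non-restored (7 libraries from 4 animals, of which 3 and 2 libraries came from animals 1 and 2) or restored (4 libraries with FLPo-ERT2 given tamoxifen). Of the non-restored animals, 1 and 2 had FLPo-ERT2 and were given vehicle, and 3 and 4 lacked it and were given tamoxifen. Live neoplastic cells positive for tdTomato and negative for CD45, CD31, F4/80 and Ter119 were sorted. All restored libraries were from females, whereas the other groups held both sexes.

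The libraries held 1302482 to 5943951 expected counts. A limit of 3 counts, about the 95% upper bound on the mean behind a count of 0, equaled 0.505 to 2.303 CPM (counts scaled to the size of the library). This limit covers counting error only. *Stk11* was at most 1.45 TPM (transcript abundance corrected for gene length and library size) in every non-restored library of either *Trp53* status, and it was 16 to 29.5 TPM in *KT*, 12.7 to 20.8 TPM in restored and 8.36 to 14.8 TPM in restored *Trp53*-deleted libraries. *Trp53* was 0.45 to 5.48 TPM in *Trp53*-deleted libraries and 10.8 to 30.8 TPM in all others. The summed level of 12 alveolar type II (ATII) markers, which include the surfactant genes, was 7710 to 172000 TPM over all libraries. The summed level of 7 neuroendocrine markers was at most 14 TPM, that of leukocyte markers was at most 134 TPM that of endothelial markers at most 70.3 TPM, that of fibroblast markers at most 695 TPM and that of airway markers 35.5 to 1150 TPM. The labels name each library of the *Trp53* wild-type groups differently, while the study counts fewer mice than libraries for its *Lkb1XTR/XTR* tumors. Each library was taken as independent, and if a mouse gave several, p-values measure in part the spread within a mouse. In bulk samples, fewer cells that express a gene and less RNA per cell cannot be told apart.

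*Ros1* (ENSMUSG00000019893) covers chr10:52045721-52195244 on the minus strand (GRCm38), with 4 annotated transcripts and 2 processed pseudogenes within its limits. Sequences of the 250 bases before the start were taken from RefSeq (GRCm38.p6), whose table matched 8 of the 10 receptors. *Ros1* and *Fgfr2* are shown because their restored and non-restored libraries did not overlap, and *Met* because it was a highly expressed receptor whose groups overlapped. Capitals mark CG dinucleotides, and each sequence reads 5′ to 3′ on the strand of the gene.

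Ros1, chr10:52195245-52195494, minus strand: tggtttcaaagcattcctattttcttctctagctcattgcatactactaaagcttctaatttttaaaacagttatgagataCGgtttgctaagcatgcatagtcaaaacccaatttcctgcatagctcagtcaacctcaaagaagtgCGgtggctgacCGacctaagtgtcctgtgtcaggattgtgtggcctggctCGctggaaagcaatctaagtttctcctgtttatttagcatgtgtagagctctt

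Fgfr2, chr7:130266809-130267058, minus strand: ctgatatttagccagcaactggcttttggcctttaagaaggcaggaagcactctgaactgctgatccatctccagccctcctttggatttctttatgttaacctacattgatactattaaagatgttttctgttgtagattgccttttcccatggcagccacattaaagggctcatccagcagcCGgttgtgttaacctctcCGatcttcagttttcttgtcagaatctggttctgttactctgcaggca

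Met, chr6:17463707-17463956, plus strand: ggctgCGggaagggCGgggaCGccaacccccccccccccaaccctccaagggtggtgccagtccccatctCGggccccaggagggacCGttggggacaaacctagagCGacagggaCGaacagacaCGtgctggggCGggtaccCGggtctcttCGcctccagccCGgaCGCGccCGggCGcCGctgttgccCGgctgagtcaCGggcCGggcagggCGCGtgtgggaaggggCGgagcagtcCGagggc

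*Ros1* held 4 CG dinucleotides and 41.6% G or C in this window, and *Fgfr2* held 2 and 44.0%. The other matched receptors held 11 (*Egfr*), 16 (*Erbb2*), 24 (*Met*), 19 and 24 (both starts of *Fgfr3*), 17 and 18 (both starts of *Kit*) and 42 (*Igf1r*). Over all 32851 windows in the table the median was 6 CG dinucleotides and 52.4% G or C, and 44.4% of windows held no more CG dinucleotides than *Ros1*. The windows were also searched on both strands for TTNNGNAA (a C/EBP pattern), CAAGNG (an NKX2-1 pattern), TGACGTCA (the cyclic AMP response element) and TGACG (a shorter form, which overlaps it). None of the 4 patterns occurred in the *Ros1*, *Fgfr2*, *Egfr* or *Igf1r* window or in either *Kit* window. The NKX2-1 pattern occurred 1 time in the *Met* window and 3 times in the window of the first *Fgfr3* start, with no pattern at the second. The *Erbb2* window held 1 C/EBP pattern, 1 NKX2-1 pattern and 1 TGACG. These patterns occurred in 36.8%, 40.6%, 1.55% and 17.8% of all windows. A match or its absence in this window is a description of the letters only.

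*Ros1* was the third most abundant of 58 receptor tyrosine kinases in *KT* tumors, the 14th in non-restored tumors and the 5th in restored tumors, by mean TPM. In *KT* libraries *Ros1* stood at 53.5, 30.0, 49.6 and 66.6 TPM. In the 10 non-restored libraries it ranged from 6.53 to 17.2 TPM with a median of 12.8 TPM, and in the 7 restored libraries from 22.9 to 53.4 TPM with a median of 29.1 TPM. All non-restored libraries thus lay below all *KT* and all restored libraries, while restored and *KT* libraries overlapped.

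The mean level was 49.9 ± 15.1 TPM in *KT* (SD, n = 4), 12.1 ± 4.09 TPM in non-restored (n = 10) and 34 ± 12.9 TPM in restored tumors (n = 7). The *KT* mean was 4.14 times and the restored mean 2.82 times the non-restored mean, and the restored mean was 68.1% of the *KT* mean. On counts, the fitted log2 fold change of *Ros1* was −2.24 (SE 0.245) from *KT* to non-restored, 1.59 (SE 0.216) from non-restored to restored and −0.65 (SE 0.27) between restored and *KT*. These values describe the contrasts on which *Ros1* was chosen. The summed ATII level was 73500 to 146000 TPM in *KT*, 7710 to 116000 TPM in non-restored and 70700 to 172000 TPM in restored libraries, and its part in the *Ros1* difference was not tested. Of the 12 ATII markers, 2 fell from *KT* to non-restored, *Lcn2* (−1.74, SE 0.307, adjusted p = 0.00159) and *Lyz2* (−1.73, SE 0.499, adjusted p = 0.0431), and 1 rose on restoration, *Lyz2* (1.83, SE 0.439, adjusted p = 0.0313), all as log2 changes. The median log2 change of the 12 was −0.65 and 0.6 in these comparisons, against 0.03 and −0.01 over all genes. Of 10 alveolar type I markers, *Emp2* rose from *KT* to non-restored (0.95, SE 0.193, adjusted p = 0.00475) and fell on restoration (−0.62, SE 0.155, adjusted p = 0.0385), and *Pdpn* fell from *KT* to non-restored (−2.59, SE 0.675, adjusted p = 0.0269). Over all genes 0.973% rose and 0.894% fell on restoration, and 2.38% rose and 3.48% fell from *KT* to non-restored.

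**Figure D1:**
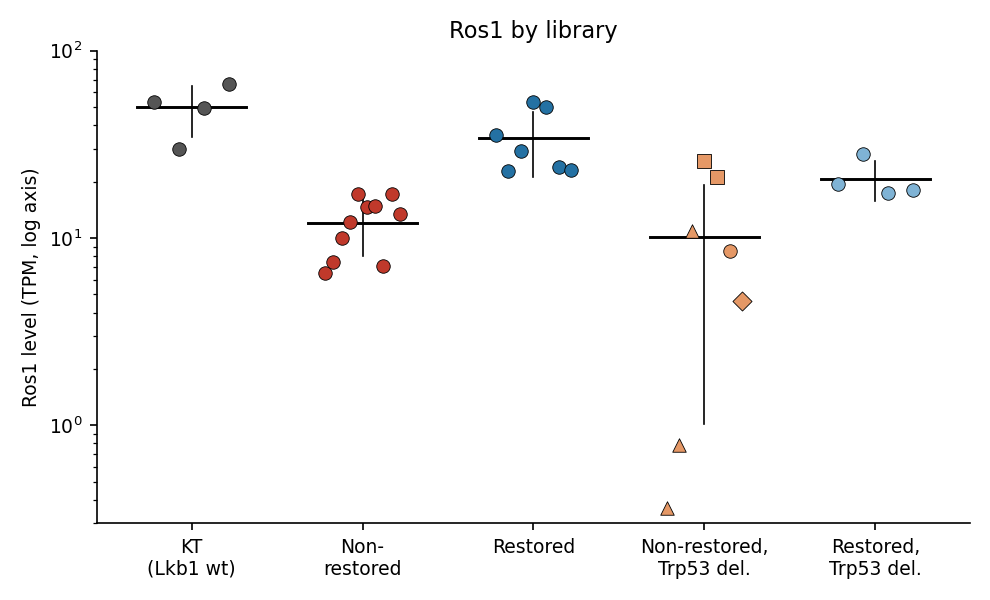
*Ros1* level per library in TPM on a log axis for the 5 groups. Points are libraries, wide lines group means and thin lines 1 SD. In the *Trp53*-deleted non-restored group triangles, squares, circle and diamond are animals 1 to 4, and mean and SD are over animals. All non-restored points with wild-type *Trp53* lie at or below 17.2 TPM and all restored ones at or above 22.9 TPM.

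In *Trp53*-deleted tumors the levels of *Ros1* were wider. Non-restored animal 1 gave 3 libraries with 0.36, 0.78 and 10.9 TPM, a span of 30.3 times within 1 animal. Animal 2 gave 25.7 and 21.2 TPM, animal 3 gave 8.53 TPM and animal 4 gave 4.59 TPM. The 4 restored libraries gave 19.3, 28.03, 17.3 and 18.1 TPM. Both groups overlapped through animal 2, and the means were 10.1 ± 9.09 TPM (SD, n = 4 animals) and 20.7 ± 4.96 TPM (n = 4), which is 2.04 times higher in the restored group. The fitted log2 fold change was 1.05 (SE 0.527), again on a contrast used to choose *Ros1*.

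The effect of *Trp53* deletion on *Ros1* was tested with edgeR's quasi-likelihood test. Its reference libraries, with wild-type *Trp53*, were among those on which *Ros1* was chosen, so the test is not independent of that choice. In non-restored tumors the log2 fold change was −0.20 (SE 0.335, adjusted p = 0.777), and it was 0.07 without animal 1, 0.02 without animal 4 and −0.97 without animal 2 (adjusted p = 0.0858). In restored tumors it was −0.76 (SE 0.357, adjusted p = 0.295), where the unadjusted p was 0.0426. The restored libraries with and without *Trp53* overlapped between 22.9 and 28.03 TPM. The tamoxifen and vehicle arms of the non-restored group also differed in FLPo-ERT2, so tamoxifen alone could not be compared. Between these arms *Ros1* differed by −0.01 on the log2 scale (SE 0.303, adjusted p = 1.0).

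RSEM also gives, for each gene and library, a length averaged over its transcripts and weighted by their abundance, which moves when another transcript is used. For *Ros1* this length was 7290 ± 61 bases in *KT* (SD, n = 4), 7190 ± 144 bases in non-restored (n = 10) and 7317 ± 78 bases in restored tumors (n = 7). The restored and non-restored lengths overlapped and did not pass an exact two-sided permutation test (p = 0.0523, adjusted p = 0.889 over 22 tests). Among the 22 tests on *Ros1*, *Egfr*, *Erbb2*, *Met*, *Fgfr2*, *Fgfr3*, *Ret* and *Igf1r* in libraries with at least 10 counts, 0 had an unadjusted p under 0.05.

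*Fgfr2*, the receptor of FGF7 and FGF10, had the highest mean TPM of the 10 receptors in every group except *Trp53*-deleted non-restored tumors, where *Met* had the higher mean. *KT* libraries gave 131, 379, 277 and 247 TPM. Non-restored libraries ranged from 20.7 to 189 TPM (median 170 TPM) and restored libraries from 199 to 269 TPM (median 227 TPM). Every restored library thus lay above every non-restored library, while *KT* overlapped with both.

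*Ros1* and *Fgfr2* were the 2 of 9 tested receptors whose restored and non-restored ranges did not overlap, also in CPM, against 0.554% of all 12636 genes tested. Between non-restored and *KT* it was 1 of 9 (*Ros1*), against 3.86%. For *Ros1* this follows from how it was chosen. The log2 fold change of *Fgfr2* from non-restored to restored was 0.77 (SE 0.289), which did not pass (adjusted p = 0.194, and 0.0818 to 0.461 over 31 alternatives). From *KT* to non-restored it was −1.01 (SE 0.337, adjusted p = 0.0836). Without non-restored library 8 this was −0.88 and passed (adjusted p = 0.0187, with 951 of 12500 genes passing). It also passed with DESeq2 (adjusted p = 0.048, 1083 of 12636 genes) and with the vehicle arm alone (adjusted p = 0.0292, 653 of 12284 genes). Between restored and *KT* it was −0.23 (SE 0.369, adjusted p = 0.887), and 0.01 without *KT* library 2. The annotated span of *Fgfr2* (chr7:130162451-133123350) covers many other genes, and whether the counting used strand is not given in the sources used here.

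*Fgfr3*, a related FGF receptor, gave 15.9, 14.6, 10.3 and 13.2 TPM in *KT*, 2.99 to 24.4 TPM in non-restored (median 17.4 TPM) and 13.8 to 24.0 TPM in restored libraries (median 16.4 TPM). The 3 groups overlapped. Its log2 fold change was 0.06 (SE 0.297) from non-restored to restored and 0.09 (SE 0.366) from *KT* to non-restored, of which the first changed sign without single libraries (−0.07 to 0.16) and the second with the tamoxifen arm alone (−0.08).

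*Met*, the receptor of hepatocyte growth factor, was the second receptor by mean TPM in the *KT*, non-restored and restored groups. *KT* libraries gave 62.4, 86.3, 69.3 and 68.0 TPM, non-restored libraries 52.3 to 117 TPM (median 79.7 TPM) and restored libraries 66.2 to 118 TPM (median 86.5 TPM). The groups overlapped, with a fitted log2 change of 0.27 (SE 0.144, adjusted p = 0.407) from non-restored to restored.

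*Erbb3*, a partner receptor with little kinase activity of its own, gave 45.8, 37.2, 40.3 and 30.2 TPM in *KT*, 37.9 to 99.4 TPM in non-restored (median 44.3 TPM) and 30.0 to 62.8 TPM in restored libraries (median 36.4 TPM). *Erbb2*, which has no known ligand and pairs with the other ERBB receptors, gave 11.6, 6.62, 7.61 and 11.3 TPM in *KT*, 12.3 to 25.8 TPM in non-restored (median 14.4 TPM) and 7.67 to 18.4 TPM in restored libraries (median 15.3 TPM). In TPM, all non-restored libraries exceeded all *KT* libraries for *Erbb2*, but in CPM they overlapped. The log2 fold change of *Erbb2* on counts was 0.44 (SE 0.196, adjusted p = 0.204) from *KT* to non-restored.

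*Egfr*, the receptor of EGF, amphiregulin and related ligands, was low in these cells, with 8 to 20 counts per *KT* library. *KT* libraries gave 1.44, 4.59, 0.99 and 1.13 TPM, non-restored libraries 0.99 to 8.56 TPM (median 2.44 TPM) and restored libraries 1.34 to 4.93 TPM (median 2.23 TPM). The groups overlapped in TPM. In CPM the restored libraries lay above all *KT* libraries, as 1 of 9 tested receptors against 2.74% of all genes, and the highest TPM in *KT* came from library 2 with 8 counts. The log2 fold change from *KT* was 1.53 (SE 0.523, adjusted p = 0.088) in non-restored and 1.19 (SE 0.539, adjusted p = 0.445) in restored tumors. From *KT* to non-restored it was 1.06 without non-restored library 8, and it passed in 3 of 31 alternatives. These were DESeq2 (adjusted p = 0.0285, with 1083 of 12636 genes passing), the tamoxifen arm alone (adjusted p = 0.0351, 280 of 12213 genes) and the replicate number as a block (adjusted p = 0.0378, 705 of 12636 genes). Within non-restored tumors the tamoxifen arm was higher than the vehicle arm by 1.24 on the log2 scale (SE 0.483, adjusted p = 1.0), and by 0.49 without library 8.

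*Igf1r*, the receptor of insulin-like growth factors, gave 15.6, 4.89, 12.8 and 20.4 TPM in *KT*, 1.16 to 17.0 TPM in non-restored (median 7.13 TPM) and 3.96 to 17.9 TPM in restored libraries (median 9.72 TPM), all overlapping. Its log2 fold change from *KT* to non-restored was −0.85 (SE 0.491, adjusted p = 0.342). *Ret*, the receptor of the GDNF family of ligands, had 4 to 65 counts per library with wild-type *Trp53* and gave 0.76 to 2.06 TPM in *KT*, 0.97 to 4.69 TPM in non-restored and 1.79 to 4.25 TPM in restored libraries. *Kit*, the receptor of stem cell factor, had 0 to 11 counts in these libraries, with *KT* libraries at 0 or 1 count, and was left out of the fits of wild-type tumors by the filter on low counts.

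**Figure D2:**
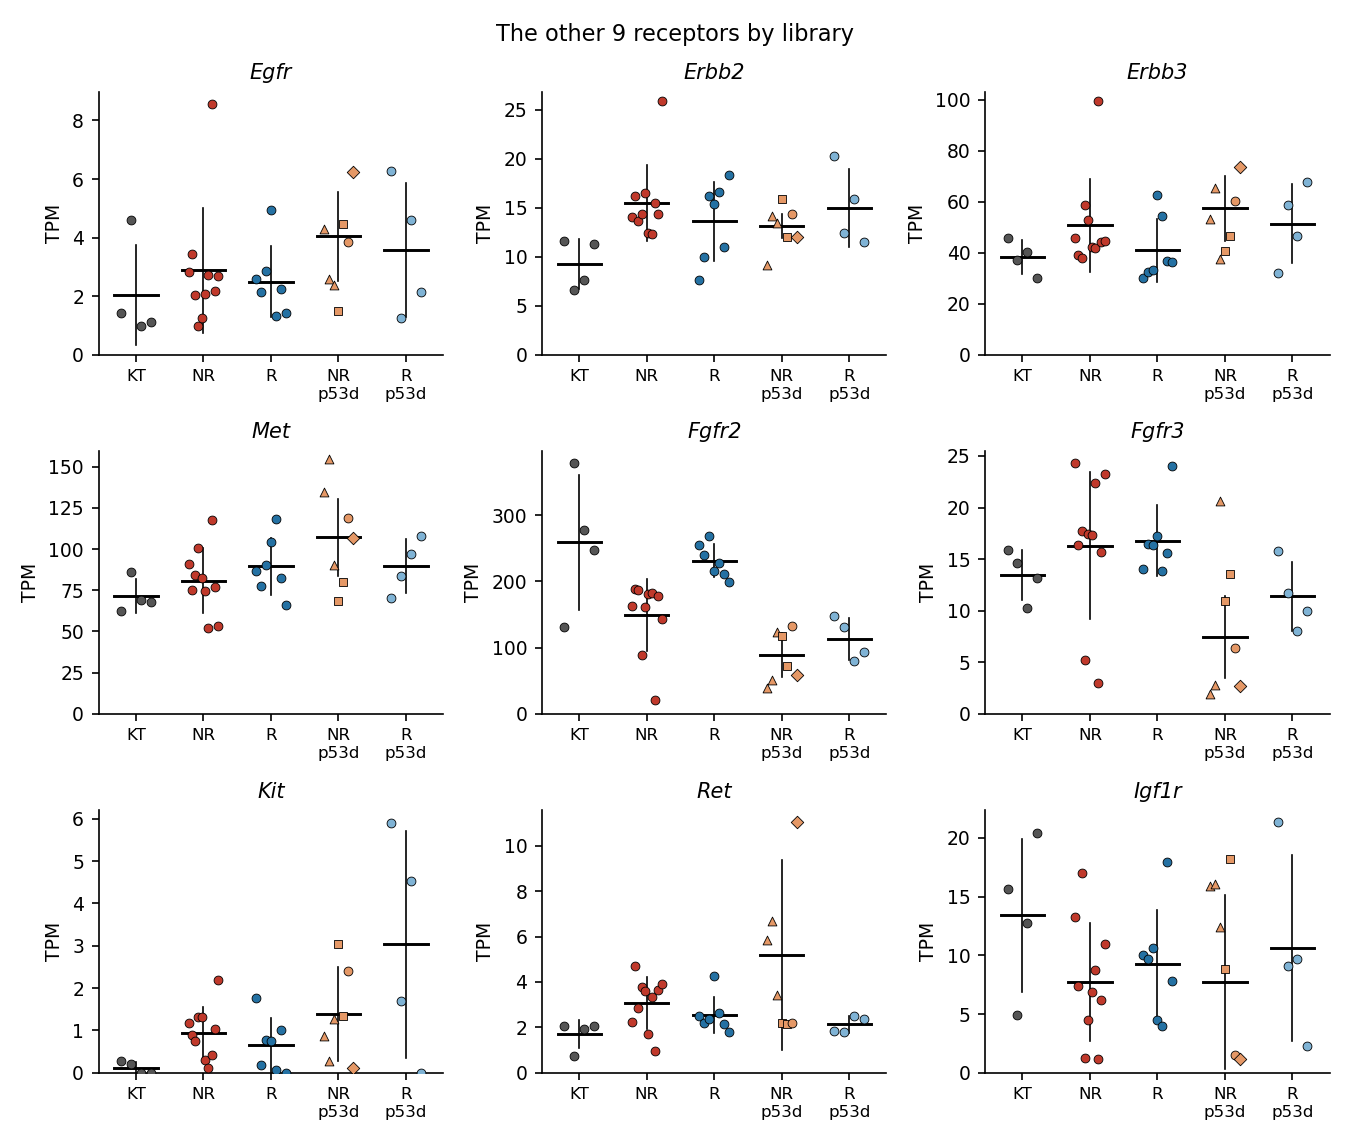
TPM of the other 9 receptors per library, each panel on its own linear axis from 0, for *KT*, non-restored (NR), restored (R) and the *Trp53*-deleted (p53d) groups. Wide lines are means and thin lines 1 SD, stopped at 0; symbol shapes in NR p53d mark animals 1 to 4. In the *Fgfr2* panel all R points (199 to 269 TPM) lie above all NR points (20.7 to 189 TPM), and in the other panels R and NR overlap.

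Across the 3 comparisons of wild-type tumors, 0 of the 8 tested receptors other than *Ros1* passed edgeR's quasi-likelihood test after adjustment over 12636 genes. At an unadjusted p under 0.05 there were 1 from non-restored to restored (*Fgfr2*), 3 from *KT* to non-restored (*Egfr*, *Fgfr2* and *Erbb2*) and 1 between restored and *KT* (*Egfr*), against 15.1%, 20.8% and 10.5% of all genes. DESeq2 passed 0, 2 and 0 of these receptors, against 3.7%, 8.57% and 1.33% of all genes. Over all genes, 0.973% were higher and 0.894% lower in restored than in non-restored tumors, 2.38% higher and 3.48% lower in non-restored than in *KT*, and 0.127% higher and 0.332% lower in restored than in *KT*. With 8 receptors tested, shares of this size among all genes also correspond to fewer than 1 receptor. The median log2 fold change over all genes was −0.01, 0.03 and 0.01 in these comparisons.

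**Figure D3:**
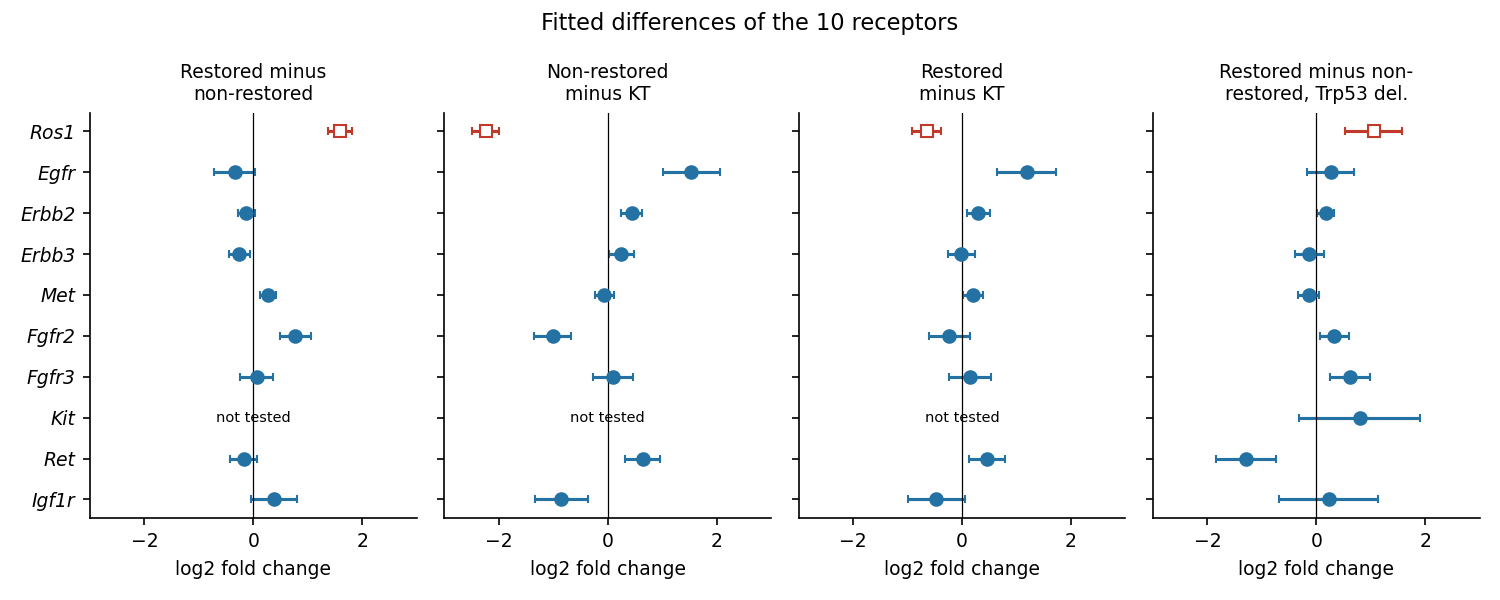
Fitted log2 fold changes of the 10 receptors with 1 SE on each side in 4 comparisons. The open square is *Ros1*, shown as a description because it was chosen on these contrasts, and filled circles are the other receptors, of which 0 passed; *Kit* was not tested in wild-type tumors. The largest values among the others were 1.53 for *Egfr* from *KT* to non-restored and −1.29 for *Ret* in *Trp53*-deleted tumors.

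By TPM, *Fgfr2* stood above *Met* in 7 of 7 restored and in 8 of 10 non-restored libraries. With *Trp53* deleted they were not separated, since *Fgfr2* stood above *Met* in 2 of 4 restored libraries and *Met* above *Fgfr2* in 4 of 7 non-restored ones. In *KT*, *Fgfr2* stood above *Met* and *Met* above *Ros1* in 4 of 4 libraries, whereas *Ros1* stood above *Erbb3* in 3 of 4. In non-restored tumors *Erbb2* (mean 15.5 TPM) came above *Ros1* in 6 of 10 libraries and *Ros1* above *Igf1r* in 8 of 10, so these neighbors were not separated beyond their spread. In restored tumors *Erbb3* stood above *Ros1* in 6 of 7 libraries and *Ros1* above *Fgfr3* in 6 of 7. The receptors *Egfr* and *Ret* could not be ordered, with *Egfr* above *Ret* in 1 of 4 *KT* libraries and *Ret* above *Egfr* in 7 of 10 non-restored and 3 of 7 restored libraries.

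A set of 4 libraries stood apart in several receptors at once, and they came from tumors without *Lkb1*. These 4 libraries were non-restored library 8 and, with *Trp53* deleted, libraries 1 and 2 of animal 1 and the library of animal 4. They had the lowest *Fgfr2* of all 32 libraries, at 20.7 to 57.8 TPM against at least 71.7 TPM in the other 28, and the lowest *Fgfr3*, at no more than 2.99 TPM against at least 5.19 TPM. They held 3 of the 4 highest *Erbb3* levels and 2 of the 4 highest *Met* levels. In *Ros1* they held 7.06, 0.36, 0.78 and 4.59 TPM in the order named, and those of them with *Trp53* deleted were the lowest of all 32 libraries. Their summed ATII level was 7710 to 13400 TPM against at least 31200 TPM in the other 28, and the part of this in the receptor levels was not tested. These libraries were singled out after their values were seen.

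Non-restored library 8 was in the tamoxifen arm and was the highest of its group in *Egfr* (8.56 TPM against at most 3.45 TPM in the other 9), *Erbb3* (99.4 against 58.6 TPM) and *Met* (117 against 101 TPM). It was the lowest of its group in *Fgfr2* (20.7 against at least 88.2 TPM), *Fgfr3* (2.99 against 5.19 TPM) and *Igf1r* (1.16 against 1.25 TPM). Its *Ros1* level of 7.06 TPM lay within the range of the group. Non-restored library 4, in the vehicle arm, came next to it with 88.2 TPM of *Fgfr2*, 5.19 TPM of *Fgfr3* and 1.25 TPM of *Igf1r*. The libraries of animal 1 with deleted *Trp53* differed among themselves in the same receptors, since libraries 1 and 2 held 38.5 and 51.6 TPM of *Fgfr2*, 1.94 and 2.81 TPM of *Fgfr3* and 135 and 154 TPM of *Met*, and library 3 held 123 TPM of *Fgfr2*, 20.7 TPM of *Fgfr3* and 90.3 TPM of *Met*.

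**Figure D4:**
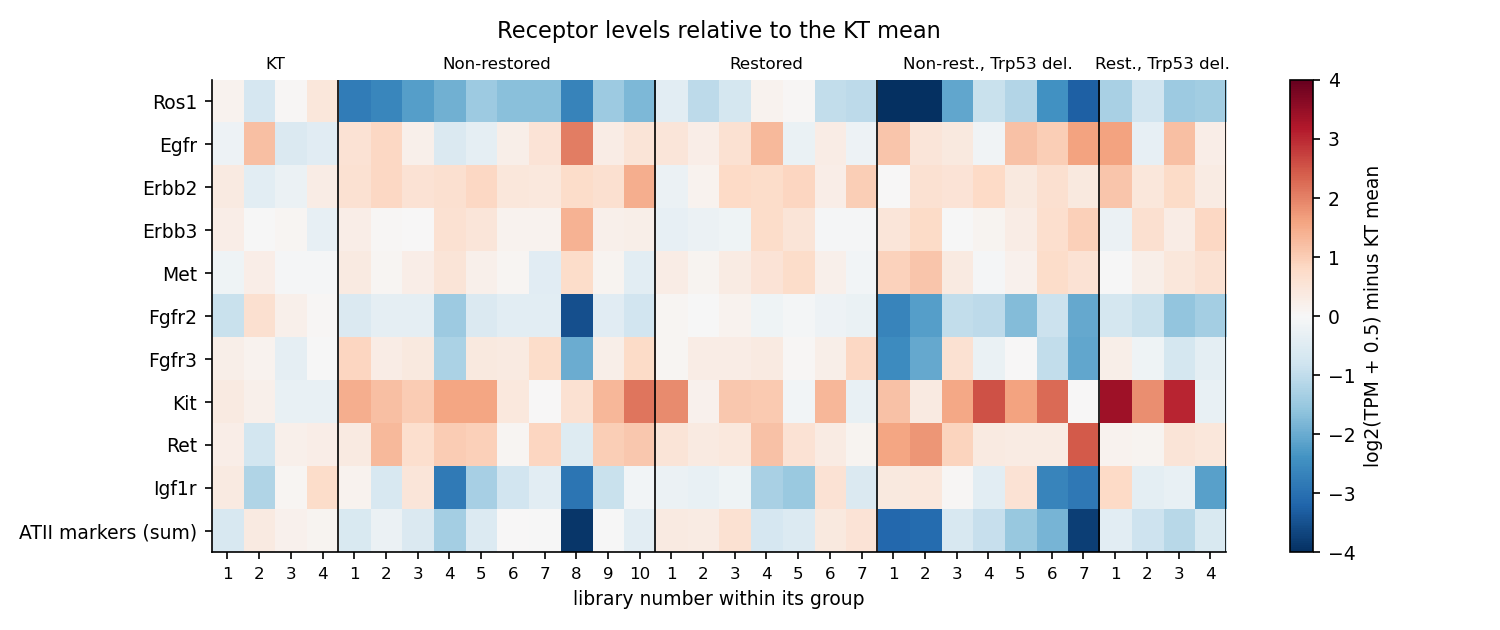
Level of each receptor and of the summed ATII markers in each library as log2(TPM + 0.5) minus the mean of the *KT* libraries, with colors that stop at 4 in either direction. Columns are libraries by their number within a group. Non-restored library 8 and *Trp53*-deleted non-restored libraries 1, 2 and 7 (the last from animal 4) are blue in *Fgfr2*, *Fgfr3* and the ATII row.

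In *Trp53*-deleted tumors 0 of 9 receptors other than *Ros1* passed between restored and non-restored, with edgeR and with DESeq2, and 1 (*Ret*) had an unadjusted p under 0.05. Over all 12518 genes tested, 0.0% passed in either direction, with 748 genes (5.98%) at an unadjusted p under 0.05 and 23 (0.184%) passing DESeq2. *Stk11* itself did not pass there, with a fitted log2 change of 5.15 (SE 0.575, adjusted p = 0.0587). *Ret* gave 5.85, 6.69 and 3.44 TPM in animal 1, 2.19 and 2.17 TPM in animal 2, 2.18 TPM in animal 3 and 11.1 TPM in animal 4, against 1.78 to 2.51 TPM in restored libraries. Both groups overlapped, with a fitted log2 change of −1.29 (SE 0.552, adjusted p = 0.803), and −0.61 without animal 4.

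*Kit* had 1 to 48 counts in *Trp53*-deleted non-restored libraries and 0 to 46 counts in restored ones, at 0.11 to 3.05 and 0 to 5.91 TPM. Its log2 fold change with *Trp53* deletion was 2.6 in restored tumors (SE 0.864, adjusted p = 0.162) and 0.95 in non-restored tumors (SE 0.777, adjusted p = 0.519). *Kit* also marks mast cells. Of 7 mast cell and basophil markers, *Cpa3*, *Tpsb2* and *Fcer1a* had 0 counts in every library of every group, while *Mcpt8* reached 1120 TPM in *Trp53*-deleted non-restored libraries. The summed level of that list was 21.8 to 1140 TPM in those libraries, 24.6 to 77.7 TPM in *Trp53*-deleted restored ones and at most 107 TPM in wild-type ones, and its part in the *Kit* counts was not tested.

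*Trp53* deletion was also tested for the 9 receptors other than *Ros1*, and 0 passed in non-restored and 0 in restored tumors with edgeR's quasi-likelihood test. Not counting *Ros1*, an unadjusted p under 0.05 was reached by 2 receptors in non-restored (*Fgfr3* and *Ret*) and 2 in restored tumors (*Fgfr2* and *Kit*), against 18.3% and 16.1% of all genes. DESeq2 passed 1 and 0, against 3.62% and 1.6% of all genes. Over 13273 genes, 0.46% were higher and 0.294% lower with *Trp53* deletion among non-restored tumors; among restored tumors these shares were 0.241% and 0.203%. *Fgfr3* had a log2 fold change of −1.24 in non-restored tumors (SE 0.38, adjusted p = 0.0974). It passed without non-restored library 8 (−1.37, adjusted p = 0.00431, with 1492 of 13149 genes passing) and without non-restored library 4 (−1.34, adjusted p = 0.0408, 378 of 13412 genes). It also passed with the vehicle arm alone (adjusted p = 0.0272, 309 of 13023 genes) and with DESeq2 (adjusted p = 0.0266, 481 of 13273 genes). *Fgfr2* had −1.08 in restored tumors (SE 0.367, adjusted p = 0.174). Its adjusted p was 0.038 when non-restored library 8 was left out of the shared fit, where 191 of 13149 genes passed. The *Fgfr2* levels were 80.2 to 148 TPM in *Trp53*-deleted restored against 199 to 269 TPM in wild-type restored libraries. In CPM, *Fgfr2* and *Fgfr3* were the 2 of 10 receptors whose ranges did not overlap there, against 3.19% of all genes, and *Fgfr3* overlapped in TPM.

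The effect of restoration was not shown to differ by *Trp53* status for any of the other 9 receptors, as 0 passed the interaction test (1, *Ret*, at an unadjusted p of 0.0333, and 0 with DESeq2). Over all genes 0.0% passed in either direction, with 403 (3.04%) at an unadjusted p under 0.05. Between the arms of the non-restored group 0 of 8 receptors other than *Ros1* passed with edgeR or DESeq2 and 1 (*Egfr*) had an unadjusted p under 0.05, against 0.0% of 11561 genes in either direction, 378 genes (3.27%) at an unadjusted p under 0.05 and 11 (0.0951%) passing DESeq2.

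Other receptor tyrosine kinases were described from a list of 48, of which 26 were tested in wild-type tumors. *Ephb3*, a receptor of ephrin-B ligands, was the 1 that passed, and it moved opposite to *Ros1*. It stood at 6.08 to 8.74 TPM in *KT*, 13.4 to 23.5 TPM in non-restored and 8.71 to 15.0 TPM in restored libraries. All non-restored libraries lay above all *KT* libraries and overlapped with restored ones. In CPM, 3.86% of all genes did not overlap between non-restored and *KT* libraries. Of all genes tested, 2.38% were higher in non-restored than in *KT* tumors, and 0.894% fell on restoration. *Ephb3* rose from *KT* to non-restored by 1.08 on the log2 scale (SE 0.164, adjusted p = 0.000355, and 0.00016 to 0.00281 when single libraries were left out) and fell by 0.65 (SE 0.127, adjusted p = 0.00827) on restoration, the latter not with the vehicle arm alone (−0.55, adjusted p = 0.052). The list had medians of 0.69 and −0.20 in these comparisons, against 0.03 and −0.01 over all genes. The list holds receptors of endothelial and stromal cells, and the summed endothelial markers had a median of 4.83 TPM in *KT* and 15 TPM in non-restored libraries, and the fibroblast markers 21.2 and 67.8 TPM; their part in the list was not tested.

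Of 27 ligands of the receptors, 13 were tested, and from *KT* to non-restored 2 rose and 1 fell. For this and the following lists the shares of all genes were, as above, 2.38% higher and 3.48% lower in that comparison. They were 0.973% higher and 0.894% lower on restoration, and 0.127% higher and 0.332% lower in restored than in *KT* tumors. *Btc*, which encodes betacellulin, a ligand of EGFR and ERBB4, stood at 9.19 to 14.8 TPM in *KT*, 16.7 to 53.4 TPM in non-restored and 11.9 to 30.6 TPM in restored libraries, and it rose from *KT* to non-restored by 1.31 (SE 0.318, adjusted p = 0.016). *Nrg1*, a ligand of ERBB3, had 2 to 7 counts in *KT* libraries and 6 to 100 in non-restored libraries, at 0.28 to 1.16 and 0.93 to 11.8 TPM, with a fitted log2 change of 2.73 (SE 0.744, adjusted p = 0.0331). Both calls were lost without single *KT* libraries. The adjusted p of *Btc* was 0.0634 without *KT* library 1 and 0.0749 without *KT* library 3, and that of *Nrg1* was 0.0523, 0.0783, 0.107 and 0.111 without *KT* libraries 1 to 4.

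*Fgf2*, which encodes basic fibroblast growth factor, stood at 51.2, 4.42, 27.5 and 24.7 TPM in *KT* and at 0.72 to 1.13 TPM in all 7 restored libraries. Non-restored libraries ranged from 0.62 to 30.2 TPM with a median of 1.54 TPM, and the highest was library 4. Restored and *KT* libraries did not overlap, and in CPM the same held for 2.74% of all genes. *Fgf2* fell from *KT* to restored by 4.66 on the log2 scale (SE 0.811, adjusted p = 0.0101) and from *KT* to non-restored by 2.77 (SE 0.671, adjusted p = 0.0174), the latter in 24 of 31 alternatives. The fall from *KT* to restored did not pass with sex as a covariate (adjusted p = 0.0539), with the replicate block (0.083) or in females alone (0.283), and that to non-restored not with sex as a covariate (0.0558) or the block (0.0888). Without *KT* library 1 the adjusted p was 0.054 and 0.124. The gene overlaps *Nudt6* and other genes on the opposite strand. The summed level of fibroblast markers was 12.4 to 43.3 TPM in *KT* and 15.2 to 143 TPM in restored libraries, although the tdTomato gate should remove fibroblasts, and its part in the *Fgf2* level was not tested.

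Of 24 co-receptors, binding proteins and ligand proteases, 19 were tested, and *Hpn*, a membrane protease that activates hepatocyte growth factor, fell from *KT* (21.5 to 42.2 TPM) to non-restored libraries (5.65 to 34.7 TPM, log2 fold change −0.96, SE 0.267, adjusted p = 0.0361), and 7 of 21 single libraries ended this when left out (adjusted p up to 0.139). Of 20 adaptors, 19 were tested. *Pik3r1*, the regulatory subunit of PI3-kinase, rose on restoration by 0.54 (SE 0.106, adjusted p = 0.00827) and fell from *KT* to non-restored (−0.45, SE 0.127, adjusted p = 0.0387, ended by 9 of 21 single libraries, adjusted p up to 0.13). In TPM the *Pik3r1* libraries overlapped, at 35.2 to 66.6 in restored and 22.4 to 70.2 in non-restored tumors, and with counts corrected for the length of its transcripts the rise on restoration had an adjusted p of 0.207, and with the tamoxifen arm alone 0.166. *Crk*, an adaptor of SH2 and SH3 domains, was 40.8 to 57.4 TPM in *KT* and 55.9 to 115 TPM in non-restored libraries and rose by 0.64 (SE 0.158, adjusted p = 0.0181), with an adjusted p of 0.08 without *KT* library 1 and 0.0645 without *KT* library 4.

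Of 22 negative regulators 21 were tested. *Socs2*, a suppressor of cytokine and growth hormone signaling, fell from *KT* (269 to 335 TPM) to non-restored (52.7 to 270 TPM) by 1.08 on the log2 scale (SE 0.234, adjusted p = 0.00783), with 209 ± 36.2 TPM in restored tumors (SD, n = 7). *Ptprj*, a receptor phosphatase, was higher in non-restored than in *KT* tumors (0.74, SE 0.217, adjusted p = 0.0448), a call that 14 of 21 single libraries ended when left out (adjusted p up to 0.137). Among 16 tested of 17 readouts of ERK signaling, *Etv1*, an ETS transcription factor, fell from *KT* (24.5 to 43.5 TPM) to non-restored (3.43 to 23.3 TPM) by 1.64 on the log2 scale (SE 0.371, adjusted p = 0.0112), and 0.0703 was its adjusted p without *KT* library 1. The median of that list was −0.06 from *KT* to non-restored and −0.04 from non-restored to restored, near the values for all genes. With female libraries alone, the *KT* comparison of *Btc*, *Nrg1*, *Fgf2*, *Hpn*, *Crk*, *Pik3r1*, *Ptprj*, *Socs2* and *Etv1* did not pass, and *Ephb3* passed. With the tamoxifen arm alone the adjusted p from *KT* to non-restored was 0.13 for *Socs2*, 0.0881 for *Etv1*, 0.0969 for *Btc* and 0.0663 for *Nrg1*.

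The genes whose pattern was most like that of *Ros1* were sought among 13273 genes by Pearson's r of log2 CPM over 29 units, where libraries of 1 animal were summed. Among the 8 most alike were *1810010H24Rik* (r = 0.888), *Selenop* (0.846), *Rnf135* (0.845), *Sord* (0.84), *Creg1* (0.827), *Slc23a1* (0.824) and *Atp6v0a1* (0.819). The Spearman rho of these 7 genes ranged from 0.795 to 0.894. The units share group and depth, and after each group's mean was taken away r was 0.583 for *1810010H24Rik*, 0.663 for *Rnf135* and 0.24 for *Sord*. No test is given, as the genes were picked for this likeness.

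*1810010H24Rik* stood at 83.1 ± 23.2 TPM in *KT* (SD, n = 4), 24.8 ± 10.4 TPM in non-restored (n = 10) and 54.8 ± 9.80 TPM in restored tumors (n = 7). *Selenop*, the selenium carrier of plasma, stood at 676 ± 153, 255 ± 70.5 and 641 ± 85.8 TPM, and *Sord*, sorbitol dehydrogenase, at 30.3 ± 3.47, 5.13 ± 1.76 and 17.9 ± 4.31 TPM. *Slc23a1*, a vitamin C transporter, stood at 12.5 ± 2.79, 1.56 ± 0.768 and 4.08 ± 1.06 TPM. Among the 3 wild-type groups each of these means was lowest in non-restored tumors, as that of *Ros1* was.

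Among the other receptors *Fgfr2* was the most like *Ros1*, with r = 0.599 and place 325 in the order of likeness, and r fell to 0.141 within groups. *Fgfr3* had r = 0.417 and *Igf1r* r = 0.371, while *Egfr* had r = −0.532 and *Ret* r = −0.42 over the 29 units. Of the ATII markers the most like *Ros1* were *Lcn2* (r = 0.699, place 94) and *Lyz2* (r = 0.656, place 176), and *Sftpc* had r = 0.559. Within groups r fell to 0.245 for *Lcn2*, 0.161 for *Lyz2* and 0.281 for *Sftpc*. The ATII marker least like *Ros1* was *Napsa* (r = 0.125, place 4894). All of these are descriptions over units that share their groups.

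**Figure D5:**
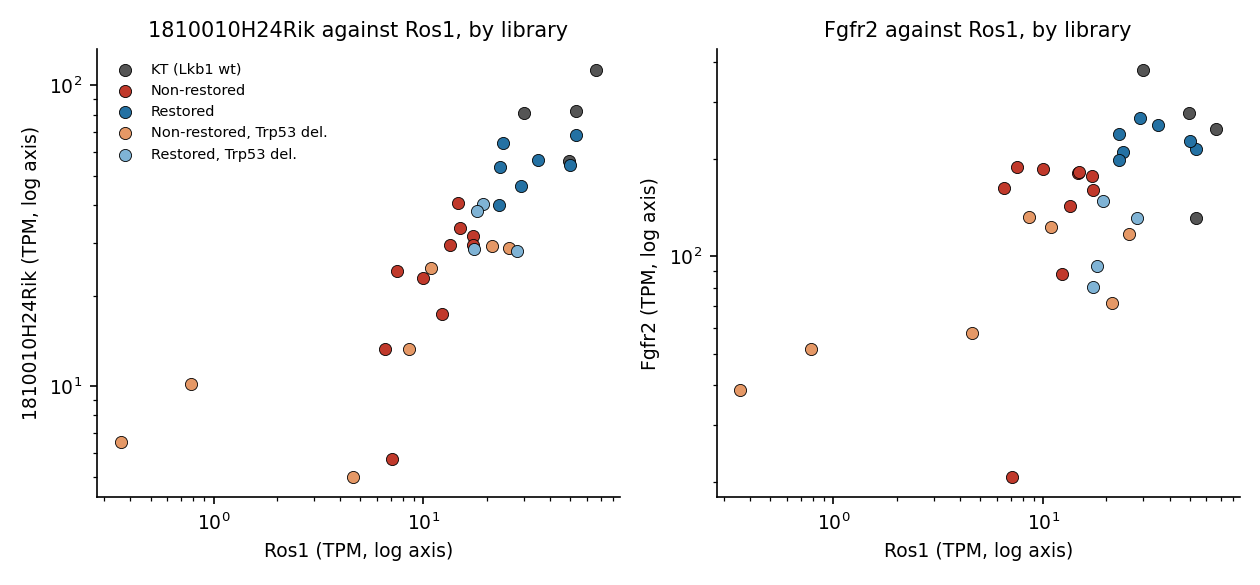
*1810010H24Rik* (left) and *Fgfr2* (right) against *Ros1*, in TPM on log axes, with a point for each of the 32 libraries colored by group. With wild-type *Trp53* the non-restored libraries hold 5.73 to 40.5 TPM of *1810010H24Rik* and the *KT* libraries 56.2 to 113 TPM, and *Fgfr2* spreads from 20.7 to 189 TPM within the wild-type non-restored group at *Ros1* levels of 6.53 to 17.2 TPM.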

How the data were processed

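Libraries were made from RNA of sorted tumor cells with the Trio RNA-seq kit. Per the submitters' processing notes and the methods, the authors aligned reads to mm10 with STAR 2.6.1d and estimated each gene with RSEM 1.2.30. The expected counts that the authors deposited were not normalized, and 5.57% of values were not whole (tolerance 0.005). The authors' TPM came from the same RSEM runs and correct for effective transcript length and for library size. The authors' tables of normalized counts and of their own DESeq2 1.26.0 comparisons (fold changes and p-values) were not used.

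Groups came from the labels, and 0 columns of per-library values were left unmapped. Counts were rounded, filtered with filterByExpr (minimum count 10), scaled by TMM and tested with edgeR 4.0.16 (quasi-likelihood F test, robust; limma 3.58.1, R 4.3.3), adjusted by Benjamini-Hochberg over all genes, threshold 0.05. Fits held 21 wild-type libraries, 8 *Trp53*-deleted units (libraries of 1 animal summed), all 29 units, or the 10 non-restored libraries. Logs used a prior count of 2. The depth was 1302482 to 5943951 counts per library. An exact permutation test (two-sided) served for the RSEM lengths. Coordinates came from GENCODE M21 (GRCm38) and promoter sequences from RefSeq (GRCm38.p6). The fit was tested on simulated data. Python 3.11.15, numpy 2.4.6, pandas 2.3.3 and matplotlib 3.10.9 were used.

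Replicate numbers of the wild-type groups came from the labels and those of the *Trp53*-deleted groups from accession order. Wild-type samples with the same number had correlations of −0.055 to 0.501, not all over 0.1, so they were not paired. The members and gene lists were chosen with earlier results of these data known. Named genes were the 10 receptors, at most 3 genes per list, comparison and direction that passed, the 8 genes most like *Ros1* (1 of which is not reported here), and *Stk11* and *Trp53* as checks of the labels; marker genes were named where their list was set beside a result. Alternatives were DESeq2 1.42.0, median-of-ratios size factors, no filter, effective length offsets, each library left out, the replicate block, sex as a covariate, females alone, fits of 2 groups, single control arms and single libraries as units.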

Additional observations from a re-analysis of the deposited data

Results flagged for a closer look

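Of 100 combinations of a gene and a group of 4 to 10 samples, 12 held a sample far from the rest by Dixon's 95% limits on TPM, where chance gives about 1 in 20. Non-restored library 8 was the highest of its group in *Egfr* (8.56 TPM against 0.99 to 3.45), *Erbb3* (99.4 TPM against 37.9 to 58.6) and *Ptprj* (53 TPM against 22.7 to 35.6). Non-restored library 10 was the highest in *Erbb2* (25.8 TPM against 12.3 to 16.6) and non-restored library 4 in *Fgf2* (30.2 TPM against 0.62 to 9.21). *KT* library 2 was the highest in *Egfr* (4.59 TPM against 0.99 to 1.44) and the lowest in *Ret* (0.76 TPM against 1.92 to 2.06). Restored library 4 was the highest in *Egfr* (4.93 TPM against 1.34 to 2.86) and *Ret* (4.25 TPM against 1.79 to 2.63), and restored library 7 in *Fgfr3* (24.0 TPM against 13.8 to 17.2). In CPM, *Egfr* in *KT* library 2 (6.64) and restored library 4 (13.0) and *Fgfr3* in restored library 7 (47.8) lay within their groups. Their RSEM lengths were the shortest of each group (1926, 4166 and 2696 bases). *Egfr* and *Erbb3* in non-restored library 8 and *Erbb2* in non-restored library 10 were also the highest in CPM. *Ret* was also the lowest in *KT* library 2 and the highest in restored library 4 in CPM. With *Trp53* deleted, non-restored animal 2 was the highest in *Hpn* (28.8 TPM against 15.3 to 16.8) and restored library 4 in *Socs2* (296 TPM against 177 to 182). *Ros1* had no such sample in any of the 5 groups.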

How the results depend on the processing

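The direction of *Ros1* was kept in every alternative for restored against non-restored (log2 fold change 1.47 to 1.67 without single libraries, 1.57 to 1.67 otherwise), for non-restored against *KT* (−2.41 to −2.09 and −2.39 to −1.98) and with *Trp53* deleted (0.78 to 1.84 and 1.03 to 1.61). *Ros1* was chosen on these contrasts in the same libraries, so its kept direction is a description only. The ratio of mean *Ros1* TPM was 2.55 to 2.97 without single libraries. From *KT* to non-restored the receptors that passed numbered 2 with DESeq2, 1 with the replicate block, 1 with the tamoxifen arm and 1 with the vehicle arm alone, and 0 to 1 without single libraries. Over all genes these settings passed 1083 of 12636, 705 of 12636, 280 of 12213 and 653 of 12284, and 340 to 951 without single libraries. Between restored and *KT* 1 receptor (*Egfr*) passed with the replicate block, where 67 of 12636 genes passed. For *Trp53* deletion in non-restored tumors 1 receptor passed with DESeq2 and 1 with the vehicle arm alone, and 0 to 1 without single libraries, as in restored tumors (0 to 1). Over all genes 481 of 13273 passed there with DESeq2 and 309 of 13023 with the vehicle arm. Without single libraries 26 to 1492 genes passed in non-restored and 30 to 191 in restored tumors. No length test passed with at least 30 counts or without single libraries, alternatives chosen after seeing the data.

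Receptors that did not pass changed sign as follows, and the cause was not tested. From non-restored to restored, *Egfr* was 0.27 with the replicate block and 0.32 with the vehicle arm (−0.44 to 0.13 without single libraries), *Erbb2* 0.02 with the block, *Fgfr3* −0.04 with the vehicle arm (−0.07 to 0.16), and *Ret* 0.03 in females and 0.01 with sex as a covariate. From *KT* to non-restored, *Met* was 0.02 with length offsets and 0.01 with the block (−0.14 to 0.03), and *Fgfr3* −0.08 with the tamoxifen arm (0.00 to 0.23). Between restored and *KT*, *Erbb3* was 0.02 without a filter (−0.12 to 0.09) and *Fgfr2* −0.45 to 0.01 without single libraries. With *Trp53* deleted, *Egfr* was −0.11 with length offsets and −0.08 with the tamoxifen arm, *Erbb3* −0.34 to 0.04, and *Igf1r* −0.26 by library (−0.15 to 0.84). *Ros1* with *Trp53* deletion in non-restored tumors was −0.97 to 0.07, and between the arms 0.01 without a filter (−0.26 to 0.16).

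All genes that passed numbered 236 from non-restored to restored (50 with the tamoxifen arm, 467 with DESeq2), 741 from *KT* to non-restored (132 in females, 1083 with DESeq2), 58 between restored and *KT* (10 in females, 168 with DESeq2), 100 for *Trp53* deletion in non-restored tumors (33 with the tamoxifen arm, 481 with DESeq2, 26 to 1492 without single libraries) and 59 in restored tumors (213 with DESeq2). Of 7 pairs of non-restored and restored libraries with the same number 5 had a correlation over 0.1 (0.048 to 0.501), and of 8 pairs with *KT* 1 did, so the numbers were not taken as pairing. With the replicate block 270, 705 and 67 genes passed in the 3 wild-type comparisons. *KT* libraries held 1302482 to 2649449 counts, and depth limits *Kit*, *Egfr* and *Nrg1* there.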
